A study of Mus musculus with 12 samples.

Results

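The cytosolic and mitochondrial chaperone set held 35 genes, listed by symbol as heat shock factors, Hsp70 and Hsp110 proteins, J proteins, BAG proteins, the chaperonin CCT, Hsp90 co-chaperones and mitochondrial chaperones. Each was read from 1 Affymetrix probe set annotated with that symbol alone, the one with the highest mean log2(signal + 16) over 12 arrays. Such a probe set existed for 34 of the 35 genes, among 12393 genes measured in this way, and Hsf1 was not measured. Of the 34 genes, 31 passed a filter on low signal and were tested, and Hspa1a, Hspa1b and Hsf2 did not pass it. The cells were BW5147, an established mouse thymic lymphoma line with no engineered allele named in the labels, exposed for 8 h to dexamethasone (Dex, a synthetic glucocorticoid) and a cytokine or chemokine, each in a single dose. The 6 groups, each of 2 arrays numbered 1 and 2, were Dex with CCL1 (a chemokine), Dex with IL-9 (a T cell cytokine), Dex alone, CCL1 alone, IL-9 alone and unstimulated cells. Dex was used at 100 ng/ml, IL-9 at 100 U/ml and CCL1 at 100 U/ml, and all groups grew in the same serum-containing medium. The labels speak of duplicates but do not say whether these were separate cultures, so the p-values measure only the spread between arrays, which may be technical. In such bulk RNA, fewer cells of a type and less RNA per cell cannot be told apart.

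Chaperones bind unfolded proteins and help them reach or keep their shape. Hsp70 proteins work with J proteins, which deliver substrates and trigger ATP use, and with nucleotide exchange factors of the Hsp110 and BAG families, which reset the cycle. Hsp90 with its co-chaperones finishes the folding of kinases and of steroid receptors, the glucocorticoid receptor that binds Dex among them, and the CCT ring folds actin and tubulin. Mitochondria carry their own Hsp70, Hsp60 with its lid Hsp10, and an Hsp90 relative, and heat shock factor 1 raises many of these genes when unfolded proteins build up.

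The deposited values are MAS5 signals, which the scaling had set to a trimmed mean of 100.0 to 100.1 on each array. T lineage markers summed to 3959 to 5468 signal units per array, although Cd2 read 0.173 to 14.4 and Lck was not measured, while markers of B cells, myeloid cells, erythroid cells and fibroblasts summed to at most 34.1. Both stimuli left their known targets high: Bcl3 read 114 to 159 on the IL-9 arrays against 2.61 to 13.3 on the others, and the ERK feedback gene Dusp6 read 509 to 716 on the CCL1 arrays against 134 to 209. Dex did not separate the arrays in this way. The glucocorticoid targets were 8 genes, Tsc22d3, Fkbp5, Per1, Klf9, Bcl2l11, Gpr65, Dusp1 and Zfp36. Their mean, centred per gene on the log2 scale, was 0.19 to 0.30 on the Dex arrays numbered 1 and 0.080 to 0.36 on those numbered 2. On arrays without Dex it was 0.21 to 0.46 for those numbered 1 and -0.86 to -0.65 for those numbered 2. The arrays numbered 1 and labelled as lacking Dex thus held the mean of these targets at the level of Dex-treated cells, and Dex effects are given within each number. Single targets differed: Klf9 read 0.715 to 9.62, near the floor. On the arrays numbered 2, Zfp36 read 28.4 with Dex against 33.4 unstimulated, 14.4 with Dex+CCL1 against 22.1 with CCL1, and 65.6 with Dex+IL-9 against 56.1 with IL-9. The array type of CCL1 2 differed from that of the other 11 arrays, and the fit does not include it, so that CCL1 without Dex rests on 1 array in every test, and its signals are still given.

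No chaperone gene passed the test in any of 13 comparisons of Dex, IL-9, CCL1, their combinations and the array numbers. The test was limma's moderated test over 13575 probe sets at a Benjamini-Hochberg adjusted p of 0.05, and it made 0 calls among 403 tests of a member in a comparison. The share of all probe sets called was itself small, between 0% and 0.796%, so a count of 0 among 31 genes stands close to the background. The 95% interval of the difference lay within 1.5-fold in either direction for 27 of 31 members under CCL1 averaged over both Dex conditions, for 31 of 31 under IL-9 averaged likewise, and for 27 of 31 under Dex on the arrays numbered 2. In simulated data of the same size, 100 probe sets were changed by 1 log2 unit and 100 by 2, with independent noise and no outlying array. Limma recovered 77% of those changed by 1 log2 unit for the averaged CCL1 comparison, 80% for averaged IL-9 and 50% for Dex on the arrays numbered 2. Recovery depends on how many probe sets change and on the noise, so these shares do not give the power in the real data.

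Most members were steady across the whole series, more so than the typical gene. The ratio of the highest to the lowest signal over 12 arrays had a median of 1.38 over the 31 members, against 1.84 over 7506 tested genes. The spread within groups, as an SD on the log2 scale, had a median of 0.13 over the members and 0.20 over all genes, and 24 of 31 members lay below the median of all genes. Spread on this scale depends on signal, and the members' probe sets lie mostly in the upper range of signal, so this is a description. Dnajb6, a J protein known for holding back aggregation, was the steadiest on its chosen probe set, with signals of 966 to 1142 (1.18-fold). Its other probe sets, with lower signals, spanned 1.51-fold, 1.55-fold and 2.23-fold. The widest ratios belonged to Hspb1 (3.41-fold), Chordc1 (2.70-fold), Hspa8 (2.36-fold), Dnajb4 (2.13-fold) and Bag3 (2.06-fold), and the probe sets of Hspb1, Dnajb4 and Bag3 gave low signals, at most 101.

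**Figure D1:**
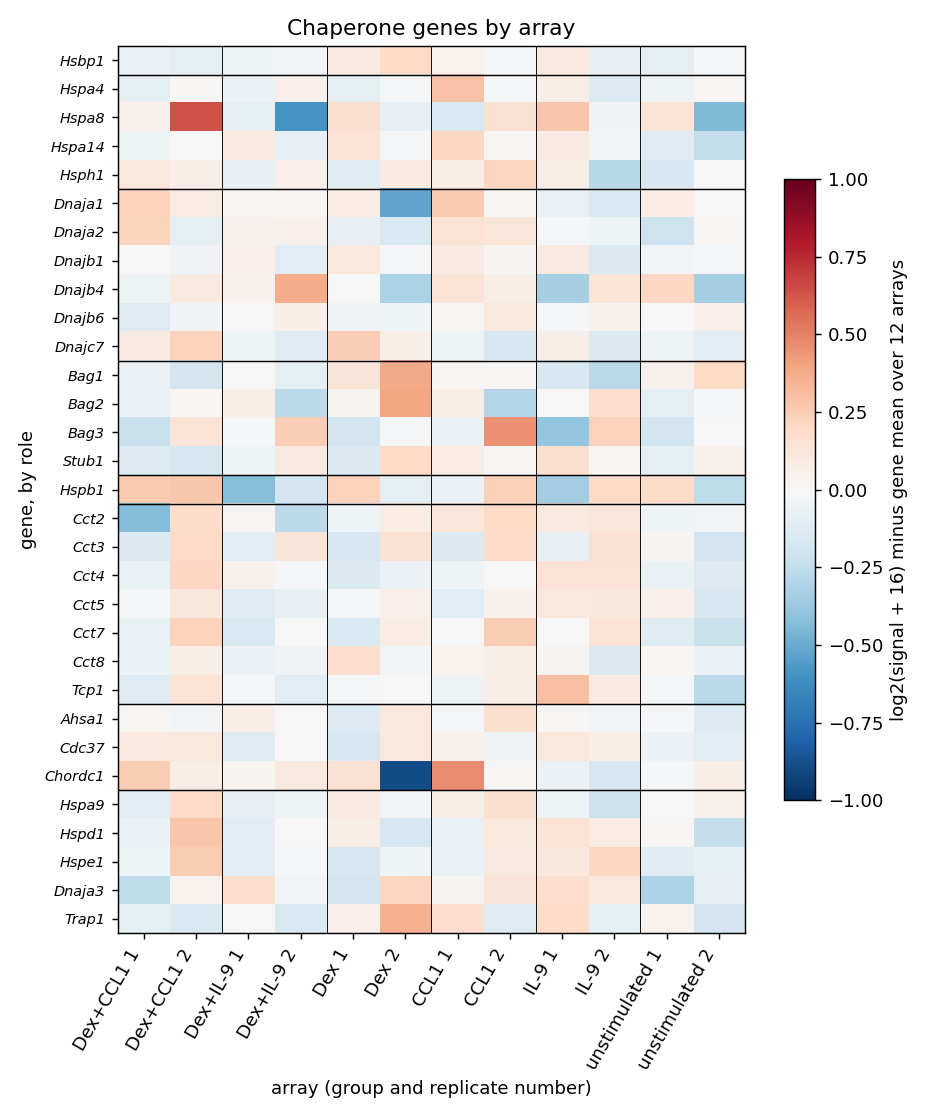
Log2(signal + 16) of the 31 tested chaperone genes on each of 12 arrays, centred on each gene's mean, with genes in rows by role and arrays in columns from Dex+CCL1 to unstimulated. Most cells are pale; the darkest cell is Chordc1 on array Dex 2, at 208 signal units against 356 to 562 on the other arrays.

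In the readings by role that follow, both arrays of a group often lie on the same side of both arrays of its control. Between 13.7% and 20.4% of all probe sets did so in each direction in each of the 4 comparisons of a stimulus with its control, so such a separation is a description. Among the regulators and the inducible Hsp70 genes, signals were low or flat. Hspa1a and Hspa1b, the heat-inducible cytosolic Hsp70 pair, which share nearly all their coding sequence and may share probes, stayed below the filter, which stood at a signal of 6.32. Hspa1a read 0.174 to 6.28 over the 12 arrays and Hspa1b 0.191 to 9.58. Hsf2, a heat shock factor that binds the same DNA element as Hsf1, read 0.0864 to 6.36. These are near the floor of the MAS5 scale, where values have no order. Hsbp1, a small protein that binds heat shock factor 1 and holds down its activity, was well measured. It read 479 and 469 with Dex+CCL1, 485 and 489 with Dex+IL-9, 535 and 574 with Dex, 512 and 493 with CCL1, 536 and 472 with IL-9 and 466 and 496 in unstimulated cells. Its 12 values spanned 1.23-fold, and both Dex readings lay above those of Dex+CCL1 and Dex+IL-9.

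Among the constitutive Hsp70 proteins and their exchange factors, Hspa8 varied and the others were steadier. Hspa8 (Hsc70), the main cytosolic Hsp70 of unstressed cells, read 4708 and 7113 with Dex+CCL1, 4303 and 3013 with Dex+IL-9, 5110.5 and 4319 with Dex, 4119 and 5087 with CCL1, 5538 and 4459.9 with IL-9 and 5023 and 3367 in unstimulated cells. The highest was on array Dex+CCL1 2 and the lowest on Dex+IL-9 2, and both Dex+IL-9 readings lay below both Dex readings, while the other groups overlapped their controls. After quantile normalization, which gives all arrays the same distribution of values, its span was 1.75-fold, against 2.36-fold as deposited, and the Dex+IL-9 and Dex readings overlapped. Other probe sets of Hspa8 with high signals spanned 1.51-fold and 1.64-fold as deposited. Their Dex+IL-9 and Dex readings overlapped, at 1486 and 1333 against 1358 and 1213, and at 3294 and 2919 against 3373 and 3261. Hspa4, an Hsp110-type exchange factor, read 1131 and 1217 with Dex+CCL1, 1154 and 1251 with Dex+IL-9, 1128 and 1198 with Dex, 1484 and 1198 with CCL1, 1262 and 1095 with IL-9 and 1162 and 1222 in unstimulated cells. Hsph1 (Hsp105), another Hsp110, read 1048 and 1023 with Dex+CCL1, 926 and 1010.0 with Dex+IL-9, 898 and 1034 with Dex, 1015 and 1132 with CCL1, 1017 and 796 with IL-9 and 871 and 980.0 in unstimulated cells. For both, array CCL1 1 or CCL1 2 was the highest and IL-9 2 the lowest, and CCL1 and unstimulated readings overlapped for Hspa4 but not for Hsph1, where CCL1 was higher. Hspa14, which sits at the ribosome with a J protein partner, read 573 and 598 with Dex+CCL1, 637 and 559 with Dex+IL-9, 658 and 590.1 with Dex, 688 and 602 with CCL1, 631 and 583 with IL-9 and 543 and 498 in unstimulated cells. Both CCL1 and both IL-9 readings lay above both unstimulated ones.

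The 6 J proteins differed little between groups, apart from Dnaja1. Dnaja1, a J protein of the cytosol that carries a lipid anchor, read 1544 and 1387 with Dex+CCL1, 1327 and 1332 with Dex+IL-9, 1386 and 906 with Dex, 1577 and 1336 with CCL1, 1253 and 1184 with IL-9 and 1383 and 1312 in unstimulated cells. Array Dex 2 was the lowest by a wide margin, and CCL1 1 the highest. Dnaja2, a close relative, read 459.6 and 365 with Dex+CCL1, 403 and 407 with Dex+IL-9, 368 and 349.8 with Dex, 433 and 426 with CCL1, 386 and 379.6 with IL-9 and 337 and 397 in unstimulated cells, with both CCL1 arrays above the unstimulated ones and both Dex+IL-9 arrays above the Dex ones. Dnajc7, which binds Hsp70 and Hsp90 through tandem repeats, read 406 and 449 with Dex+CCL1, 369 and 346 with Dex+IL-9, 454 and 396 with Dex, 369 and 337 with CCL1, 397 and 343 with IL-9 and 366 and 349 in unstimulated cells. Both Dex readings lay above both Dex+IL-9 readings of Dnajc7. Dnajb1, the classic heat-inducible J protein, ranged over 260.1 to 313 and Dnajb4, a related one, over 20.1 to 42.8.

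In the BAG family, Bag1 read lower with each stimulus. Bag1 exchanges the nucleotide of Hsp70, links it to the proteasome, and binds Bcl2 and steroid receptors. It read 311 and 284 with Dex+CCL1, 323 and 305 with Dex+IL-9, 357 and 429 with Dex, 329 and 329 with CCL1, 289 and 266 with IL-9 and 336 and 376 in unstimulated cells. The CCL1 and the IL-9 arrays lay below both unstimulated ones, and the Dex+CCL1 and Dex+IL-9 arrays below both Dex arrays, and array Dex 2 was the highest of the series. Bag2, which inhibits the ubiquitin ligase CHIP, also peaked on Dex 2, at 426 against 258 to 364 on the other arrays. Stub1, the gene of CHIP itself, read 339 and 329 with Dex+CCL1, 362 and 398 with Dex+IL-9, 336 and 432 with Dex, 394 and 377 with CCL1, 421 and 379 with IL-9 and 351 and 386 in unstimulated cells. Bag3, which steers clients to autophagy, ranged over 49.2 to 101, and the small heat shock protein Hspb1 over 5.6 to 19.1.

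The 7 CCT subunits in the set had narrow spans, from 1.21-fold for Cct5 to 1.56-fold for Cct2. Cct4 read 1796 and 2172 with Dex+CCL1, 1942 and 1852 with Dex+IL-9, 1697 and 1806 with Dex, 1829.9 and 1885 with CCL1, 2077 and 2087 with IL-9 and 1801 and 1708 in unstimulated cells. Tcp1, the gene of the first CCT subunit, read 2435 and 2926 with Dex+CCL1, 2645 and 2483 with Dex+IL-9, 2642 and 2669.8 with Dex, 2580.0 and 2797 with CCL1, 3289 and 2816 with IL-9 and 2651 and 2213 in unstimulated cells. Array unstimulated 2 held the lowest reading of Tcp1, Cct3, Cct5 and Cct7, and array Dex+CCL1 2 the highest of Cct3, Cct4 and Cct5. Cct2 read 1973 and 3033 with Dex+CCL1, 2694 and 2230.2 with Dex+IL-9, 2602 and 2822 with Dex, 2909.9 and 3072 with CCL1, 2861 and 2909.9 with IL-9 and 2593 and 2626 in unstimulated cells, and Cct3 read 1462 and 1855 with Dex+CCL1, 1493 and 1772 with Dex+IL-9, 1437 and 1799 with Dex, 1464 and 1850.2 with CCL1, 1534 and 1802 with IL-9 and 1649 and 1418 in unstimulated cells. Both IL-9 readings of Cct2, Cct4, Cct5, Cct7 and Tcp1 lay above both unstimulated ones, whereas with Dex this held for Cct4 and was the reverse for Cct5 and Cct8. After quantile normalization the separation without Dex was left for Cct4, Cct7 and Tcp1 and not for Cct2 and Cct5, and that of Cct8 with Dex was lost. Other probe sets with high signals were mixed as deposited. For Cct4, the brighter read 1619 and 1865 with IL-9 against 1655 and 1405 unstimulated, an overlap. The dimmer read 939 and 884 against 839 and 681. For Cct7, another probe set overlapped, at 983 and 790 against 817 and 937.

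Of the Hsp90 co-chaperones, Ahsa1, which speeds the Hsp90 ATPase, ranged over 747 to 919, and Cdc37, which brings kinases to Hsp90, over 480.2 to 588. Both spans were at most 1.23-fold. Chordc1, an Hsp90-binding protein with zinc-binding CHORD domains, was the exception. It read 481 and 420.3 with Dex+CCL1, 409 and 429 with Dex+IL-9, 446 and 208 with Dex, 562 and 405 with CCL1, 385 and 356 with IL-9 and 395 and 421 in unstimulated cells. Without array Dex 2 the readings ran from 356 to 562 with a median of 420.3. Both IL-9 readings lay below both unstimulated ones while the other groups overlapped their controls.

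In mitochondria, Hspd1 (Hsp60) read 3141 and 3991 with Dex+CCL1, 3046 and 3286 with Dex+IL-9, 3427 and 2939 with Dex, 3157 and 3556 with CCL1, 3625 and 3464 with IL-9 and 3322 and 2797 in unstimulated cells. Hspe1 (Hsp10), its lid, read 1918 and 2360.5 with Dex+CCL1, 1832 and 1951 with Dex+IL-9, 1767 and 1923 with Dex, 1893 and 2123 with CCL1, 2142 and 2286 with IL-9 and 1821 and 1849 in unstimulated cells. Both were highest on array Dex+CCL1 2, and both IL-9 readings of each lay above both unstimulated ones as deposited but not after quantile normalization. Dnaja3, the J protein of the mitochondrial Hsp70, read 199 and 247 with Dex+CCL1, 275 and 236 with Dex+IL-9, 209.7 and 281 with Dex, 245 and 265 with CCL1, 274 and 259.9 with IL-9 and 191 and 227 in unstimulated cells. Trap1, the mitochondrial Hsp90, read 336 and 321 with Dex+CCL1, 357 and 319 with Dex+IL-9, 372 and 462 with Dex, 407 and 325 with CCL1, 411 and 333 with IL-9 and 367 and 312 in unstimulated cells. Dnaja3 and Trap1 were highest on array Dex 2, and both CCL1 and both IL-9 readings of Dnaja3 lay above the unstimulated ones. Their dimmer second probe sets did not peak on Dex 2. That of Dnaja3 read 156 there, in a range of 141 to 192, and that of Trap1 109.7, in a range of 80.6 to 160. Hspa9 (mortalin), the mitochondrial Hsp70, ranged over 993 to 1324.

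The promoters of 2 members are shown because Chordc1 varied most among the well measured genes, and because Hspd1 and Hspe1 are read in opposite directions from a shared stretch of DNA. The windows are those of RefSeq on GRCm38.p6, from 250 bases before the annotated start to 50 bases after it, and capitals mark the heat shock element searched for, GAANNTTCNNGAA or its reverse complement TTCNNGAANNTTC, on both strands with overlaps allowed. The Chordc1 window is chr9:18292017-18292316 on the plus strand, with 3 overlapping matches, of which the first begins 4 bases before the start. The Hspe1 window is chr1:55087898-55088197 on the plus strand, with 2 overlapping matches that begin 89 and 84 bases before the start, and 285 of its bases also lie in the window of Hspd1, chr1:55087883-55088182 on the minus strand.
Chordc1: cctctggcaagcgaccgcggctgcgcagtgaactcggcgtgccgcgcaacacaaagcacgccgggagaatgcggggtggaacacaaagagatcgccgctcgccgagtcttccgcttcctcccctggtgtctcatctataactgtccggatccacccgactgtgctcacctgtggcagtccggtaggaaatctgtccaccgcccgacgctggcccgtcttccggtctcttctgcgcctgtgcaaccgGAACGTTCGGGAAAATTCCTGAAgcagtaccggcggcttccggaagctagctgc
Hspe1: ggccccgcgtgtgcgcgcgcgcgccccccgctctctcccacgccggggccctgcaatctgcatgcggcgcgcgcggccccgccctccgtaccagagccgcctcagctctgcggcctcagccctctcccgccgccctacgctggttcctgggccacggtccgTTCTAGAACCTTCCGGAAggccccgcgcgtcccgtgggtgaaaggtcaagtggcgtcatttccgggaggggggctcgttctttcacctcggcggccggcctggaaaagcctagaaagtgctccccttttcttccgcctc

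A window was found for 31 of the 35 members. The motif was present in a window of 5 of them, Hsph1, Dnajb6, Chordc1, Hspd1 and Hspe1, the last 2 sharing the same stretch. Counted by gene in the same way, it was present in 0.662% of 27025 genes. Counted by window, it was in 198 of 32851 windows of the same length (0.603%). A match is a run of letters and not a known site, and no match says only that the letters are not in that window. Of the 5 genes, Dnajb6 had the narrowest span of signal in the set and Chordc1 the second widest, each on its chosen probe set.

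CCL1 signals through the receptor CCR8 and is known to protect thymic lymphoma cells from death. Averaged over cells with and without Dex, Chordc1, Dnaja1, Dnaja2 and Hspa4 (positive differences) and Bag1 (a negative one) had the smallest p of the set, and none passed the limma test. With CCL1, 0 of 31 members were called, where 0.00737% of all probe sets were, and 1 member against 5.6% of probe sets had an unadjusted p under 0.05. Chordc1 differed by 0.49 (SE 0.21, adjusted p = 0.872) in log2 units, Dnaja1 by 0.30 (SE 0.15, adjusted p = 0.897) and Bag1 by -0.24 (SE 0.12, adjusted p = 0.897), in limma. Dnaja2 differed by 0.21 (SE 0.12, adjusted p = 0.925) and Hspa4 by 0.16 (SE 0.11, adjusted p = 0.932) in the same limma fit. The 95% interval of Chordc1, 0.040 to 0.94 in log2 units, reaches close to 2-fold. The Chordc1 value rests on single arrays: on Dex 2 in its part with Dex, and on CCL1 1 in its part without Dex. Array CCL1 1 read 562, and CCL1 2, outside the fit, read 405. By array number, CCL1 minus its control was 0.49 (number 1) and -0.053 (number 2) without Dex, and 0.11 and 0.96 with it. Leaving out array Dex 2 gave 0.23 for the averaged difference (adjusted p = 0.843, limma), while leaving out Dex 1, so that Dex 2 stood for its group, gave 0.75 (adjusted p = 0.0252, with 0.486% of probe sets called).

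A total of 6 members were higher with CCL1 in all 4 numbered pairs, Dnaja1, Dnaja2, Cct4, Cct7, Cdc37 and Hspe1, and 1, Bag1, was lower in all 4. Over all tested probe sets, 7.7% were higher and 10.3% lower in all 4. Without Dex, CCL1 gave a median difference of 0.090 log2 over the members, positive in 26 of 31 (45.5% of all genes). The median was -0.027 over all genes and 0.0072 over the brightest 10% of probe sets. These values come from 1 CCL1 array and 2 unstimulated ones. In that comparison 0 of 31 members were called (0% of probe sets), and 1, Hspa14 at 0.39 (SE 0.18), had an unadjusted p under 0.05, as had 3.29% of probe sets. The other tested probe set of Hspa14 gave -0.83 (SE 0.47) there, the opposite sign. With Dex, the member median was 0.021, positive in 20 of 31 (45.9% of all genes). It was -0.025 over all genes and 0.036 over the brightest 10% of probe sets. Here 0 members were called (0.00737% of probe sets), and Bag1 alone, at -0.38 (SE 0.15), had an unadjusted p under 0.05 (6.52% of probe sets). The effect of CCL1 with Dex minus that without it had a member median of -0.034, with 0 called (0% of probe sets) and 0 at an unadjusted p under 0.05 (2.87%) in limma. Without Dex, both CCL1 arrays lay above both unstimulated arrays for 13 of 31 members, beside 14.5% of all probe sets and 22.5% of the brightest 10%. They lay below both unstimulated arrays for 1, Bag1, beside 18.7% of probe sets. These counts and the 4 numbered pairs include array CCL1 2, whose array type differed and which the fit left out. The 13 held Hspa14, Hsph1, Dnaja2, Dnajb1, 4 CCT subunits, Ahsa1, Cdc37, Hspa9, Hspe1 and Dnaja3. With Dex, both Dex+CCL1 arrays lay above both Dex arrays for 2 members, Dnaja1 and Hspb1 (13.8% of probe sets), and below them for 4, Hsbp1, Bag1, Bag2 and Trap1 (18.7%). After quantile normalization the first count was 11 of 31, beside 17.3% of probe sets. By role, CCL1 averaged over both conditions was positive for 4 of 4 Hsp70 and Hsp110 genes (0.12 for Hsph1 to 0.16 for Hspa4). It was also positive for 5 of 6 J proteins, 3 of 3 Hsp90 co-chaperones and 4 of 7 CCT subunits. The difference was negative for 3 of 4 BAG and CHIP genes, and positive for 44.2% of all genes.

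**Figure D2:**
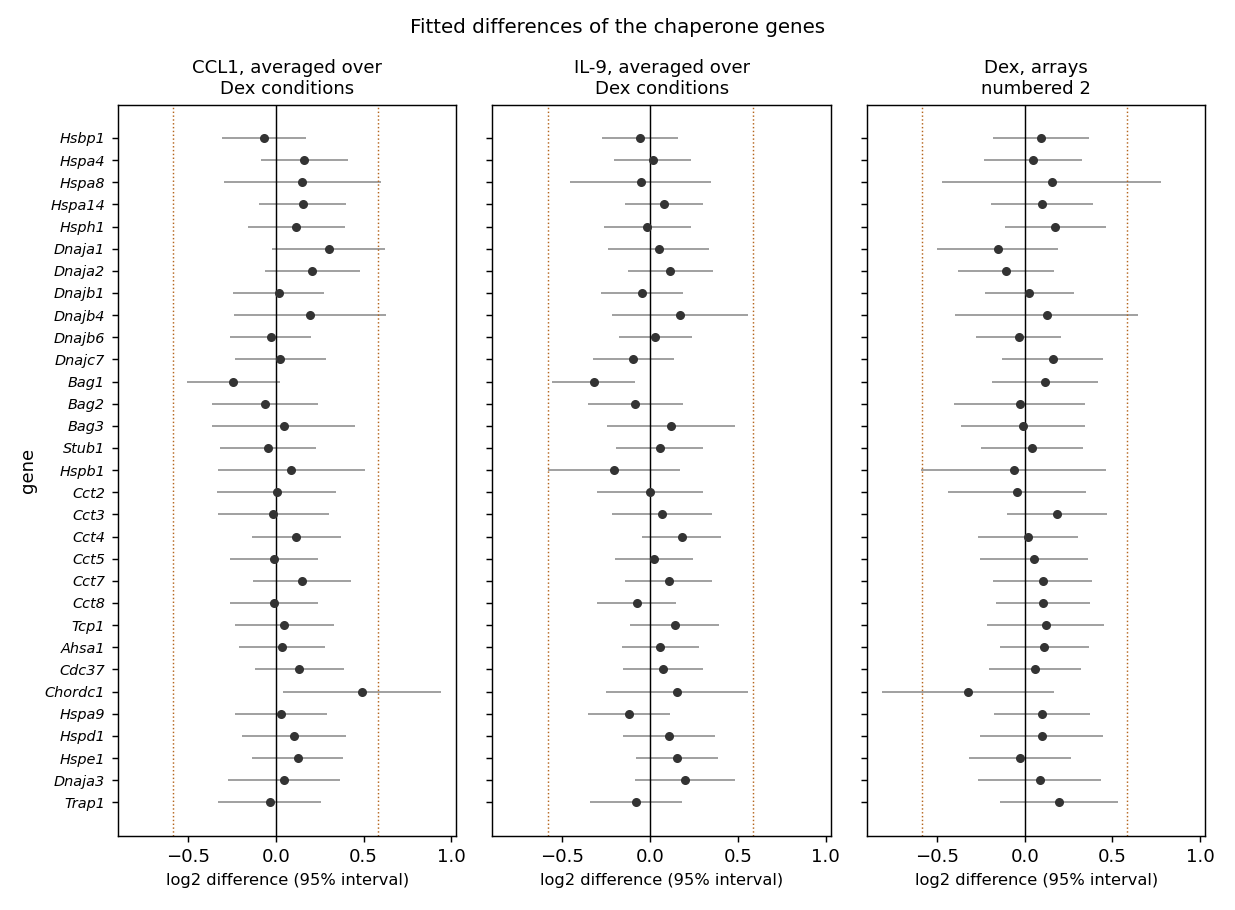
Log2 difference of each tested chaperone gene, with its 95% interval from limma, for averaged CCL1, averaged IL-9 and Dex on the arrays numbered 2, with genes in rows by role. Almost all intervals cross 0; Chordc1 has the largest CCL1 difference, 0.49, and Bag1 the largest IL-9 difference, -0.32.

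IL-9, a cytokine known to protect thymic lymphoma cells from glucocorticoid-induced death, was set against the same unstimulated and Dex arrays as CCL1, so the values for both stimuli share their controls. Bag1, lower with IL-9, had the smallest p of the set, Cct4, Dnaja3, Hspe1 and Tcp1 followed with positive differences, and none passed the limma test. With IL-9 averaged over both Dex conditions, 0 of 31 members were called, where 0.0958% of probe sets were, and 1 member had an unadjusted p under 0.05, against 8.57% of probe sets. Bag1 differed by -0.32 (SE 0.11, adjusted p = 0.450), with a 95% interval of -0.56 to -0.084, in limma. In the numbered pairs IL-9 minus control for Bag1 was -0.20 and -0.48 without Dex, and -0.13 and -0.47 with Dex, lower in 4 of 4. For CCL1 the matching values of Bag1 were -0.027, -0.19, -0.19 and -0.57. The controls of these pairs are the same arrays. On the positive side, limma gave 0.18 (SE 0.10, adjusted p = 0.660) for Cct4 and 0.15 (SE 0.11, adjusted p = 0.734) for Hspe1. On their chosen probe sets, these were the members higher in 4 of 4 pairs (8.66% of probe sets were). Limma gave 0.20 (SE 0.13, adjusted p = 0.715) for Dnaja3 and 0.14 (SE 0.11, adjusted p = 0.785) for Tcp1. Hspa9 joined Bag1 in being lower in 4 of 4 pairs, at -0.12 (SE 0.11), as were 13.1% of probe sets. Other probe sets of Hspa9 did not repeat this. A dimmer probe set read 121 and 113 with IL-9 against 95.4 and 89.5 unstimulated, and 136 and 76.3 with Dex+IL-9 against 132 and 82.5 with Dex. Another read 569 and 646 against 563 and 679, and 645 and 410.4 against 643 and 508.

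Without Dex, IL-9 gave a member median of 0.067 log2, positive in 20 of 31 (46.3% of all genes). The median was -0.019 over all genes and 0.087 over the brightest 10% of probe sets. No member was called (0.0221% of probe sets), and 1, Bag1 at -0.34 (SE 0.15), had an unadjusted p under 0.05 (4.89% of probe sets). With Dex the member median was -0.027, positive in 13 of 31 (44.1% of all genes), and that of the brightest 10% was -0.042. In this comparison 0 members were called (0.0221% of probe sets) and 0 had an unadjusted p under 0.05 (5.7%). The difference between the IL-9 effects with and without Dex had a member median of -0.13 and a median of -0.12 in the brightest 10%, with 0 members called (0% of probe sets) and 0 at an unadjusted p under 0.05 (1.58%) in limma. Of the 31 members, 17 lie in the brightest 10%. Both IL-9 arrays lay above both unstimulated arrays for 11 of 31 members, beside 16% of probe sets and 27.7% of the brightest 10%, and below them for 4, Dnaja1, Bag1, Chordc1 and Hspa9 (19.6%). With Dex, both Dex+IL-9 arrays lay above both Dex arrays for 5 members (13.7% of probe sets) and below them for 9 (20.4%). After quantile normalization the IL-9 count without Dex was 8 of 31, beside 18.6% of probe sets and 20.8% of the brightest 10%. By role, averaged IL-9 was positive for 6 of 7 CCT subunits, with a median of 0.068. It was also positive for 3 of 5 mitochondrial chaperones and 3 of 3 Hsp90 co-chaperones (0.057 for Ahsa1 to 0.15 for Chordc1). Over all genes, 45.7% were positive.

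**Figure D3:**
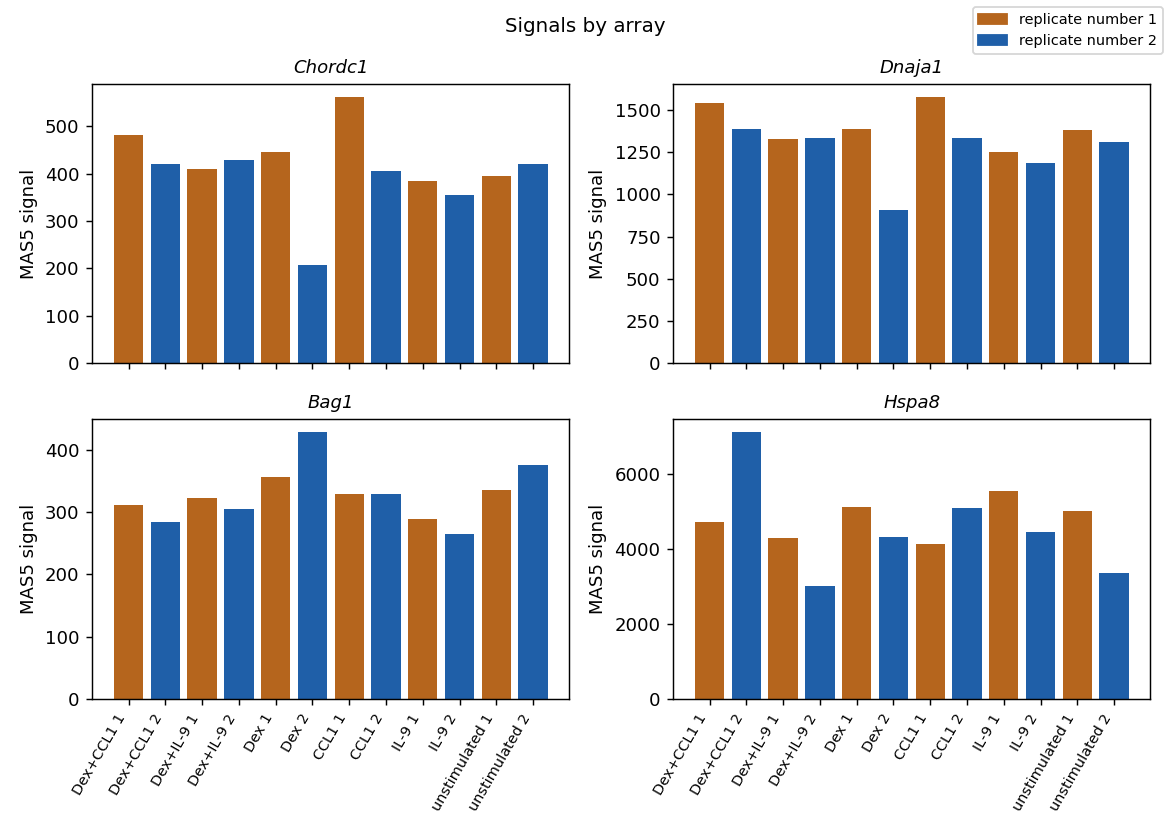
MAS5 signals of Chordc1, Dnaja1, Bag1 and Hspa8 on each of 12 arrays, 1 panel per gene. Bars are coloured by array number, with groups from Dex+CCL1 on the left to unstimulated on the right. Array Dex 2 is the lowest bar for Chordc1 (208) and Dnaja1 (906) and the highest for Bag1 (429). For Hspa8 the highest bar is Dex+CCL1 2 (7113).

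Dex, which binds a receptor that Hsp70 and Hsp90 chaperones hold ready, was compared where the glucocorticoid targets responded, on the arrays numbered 2. Chordc1 had the smallest p, with a negative difference, followed by Cct3, Hsph1, Trap1 and Dnajc7 with positive ones. In limma 0 of 31 members were called, where 0.597% of probe sets were, and 0 had an unadjusted p under 0.05, against 10.5% of probe sets. Chordc1 differed by -0.32 (SE 0.22, adjusted p = 0.634) and Cct3 by 0.18 (SE 0.13, adjusted p = 0.647) in that limma fit. Hsph1 differed by 0.17 (SE 0.13, adjusted p = 0.658), Trap1 by 0.19 (SE 0.15, adjusted p = 0.675) and Dnajc7 by 0.16 (SE 0.13, adjusted p = 0.695). Without array Dex 2 the difference was 0.037 for Chordc1 and -0.019 for Trap1, both turned in sign, and without IL-9 2 that of Hsph1 was -0.012. Dnajb4, Dnajc7 and Cct8 were higher with Dex in all 3 pairs numbered 2, as were 14.7% of probe sets, and no member was lower in all 3 (14.8% of probe sets). The member median was 0.085, positive in 22 of 31 (49.6% of all genes), and that of the brightest 10% of probe sets was 0.089. After quantile normalization the member median was 0.0016, and without array unstimulated 2 it was -0.0091.

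On the arrays numbered 1, where the targets were as high without Dex as with it, the member median was -0.040, positive in 10 of 31 (50.3% of all genes). That of the brightest 10% was -0.049. In limma 0 members were called (0% of probe sets) and 0 had an unadjusted p under 0.05 (2.5%). There, Dnaja2 was higher with Dex in all 3 pairs (15.4% of probe sets), and Hspa4, Stub1, Cct3, Cct4, Cct7 and Tcp1 were lower in all 3 (12.2% of probe sets). Averaged over both numbers, the Dex median was 0.0037, with 0 called (0% of probe sets) and 0 at an unadjusted p under 0.05 (1.53%). The members with the smallest p differed by 0.13 for Dnajc7, -0.11 for Hspa4, -0.14 for Cct2, -0.18 for Chordc1 and -0.083 for Stub1. The 95% intervals of 31 of 31 members lay within 1.5-fold for signal + 16, which does not bound the signal itself for low genes. The effect on number 2 minus that on number 1 had a member median of 0.12 and a median of 0.13 in the brightest 10%; 0 members were called (0.206% of probe sets) and 0 had an unadjusted p under 0.05 (10.1%). Among cells without Dex, number 1 minus number 2 gave 0 called members (0.796% of probe sets) and 0 at an unadjusted p under 0.05 (9.17%), with -0.34 for Bag3 (SE 0.16) and 0.31 for Trap1 (SE 0.15) the members with the smallest p in limma.

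Array Dex 2 held the lowest reading of 2 of 31 members (15.0% of all genes) and the highest of 6 (21.6% of all genes). Against the median of the other 11 arrays, Chordc1 stood at -0.96 log2 there and Dnaja1 at -0.55, and these were the members of 31 past 0.5 log2 in that direction, with 0 past it upward. Short of that limit, Trap1 stood at 0.44, Bag2 at 0.40 and Bag1 at 0.39. The second probe set of Trap1 was not raised there, at 109.7 in a range of 80.6 to 160. Over all tested probe sets, 11.7% were lower and 4.19% higher by over 0.5 log2 on Dex 2. A second probe set of Dnaja1 read 170.2 on Dex 2 against 293 to 371 on the others, so the low reading was shared by probes of the same gene. Of 26 other tested chaperone genes, listed with earlier results known, 3 were lower by over 0.5 log2 and 0 higher, with a median of 0.026 and a highest value of 0.41 for Lonp1. The 3 were Hsp90aa1, Vbp1 and Dnajc2: Hsp90aa1, the inducible cytosolic Hsp90, read 2079 on Dex 2 against 2745 to 4145, Vbp1, a prefoldin subunit, 553 against 785 to 935, and Dnajc2, the ribosomal J protein, 429 against 591 to 839. The Chordc1 values of the comparisons against Dex rest on it. With Dex 2 alone for its group, and assumed to vary like the other groups, limma called Chordc1 at 1.06 for Dex+CCL1 minus Dex and at 0.96 for Dex+IL-9 minus Dex. It called 3.89% and 4.92% of all probe sets in these comparisons, against 2 and 1 of 31 members. It also called Dnaja1 at 0.68 for Dex+CCL1 minus Dex. Without Dex 2 the Chordc1 differences were 0.011 and -0.087. What sets this array apart was not tested.

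The arrays with the highest and the lowest mean over the members were also those with the brightest and the dimmest upper end. The mean signal of the brightest 1% of probe sets was highest on Dex+CCL1 2, at 4897, and lowest on unstimulated 2, at 2962, although the trimmed means were equal. The centred mean of the 31 members was highest on Dex+CCL1 2 (0.090 log2) and lowest on unstimulated 2 (-0.094), and 9 of 31 members had their highest reading on Dex+CCL1 2 (9.39% of all genes) and 8 of 31 their lowest on unstimulated 2 (7.15% of all genes). Other arrays did not follow this order: CCL1 1 had a member mean of 0.049 with an upper end of 3253, and unstimulated 1 had -0.035 with 3822. After quantile normalization Dex+CCL1 2 stood at 0.010 and unstimulated 2 at -0.025, and the extremes moved to CCL1 1 (0.082) and unstimulated 1 (-0.048). The part that scaling has in the differences of these members was not tested beyond these values.

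**Figure D4:**
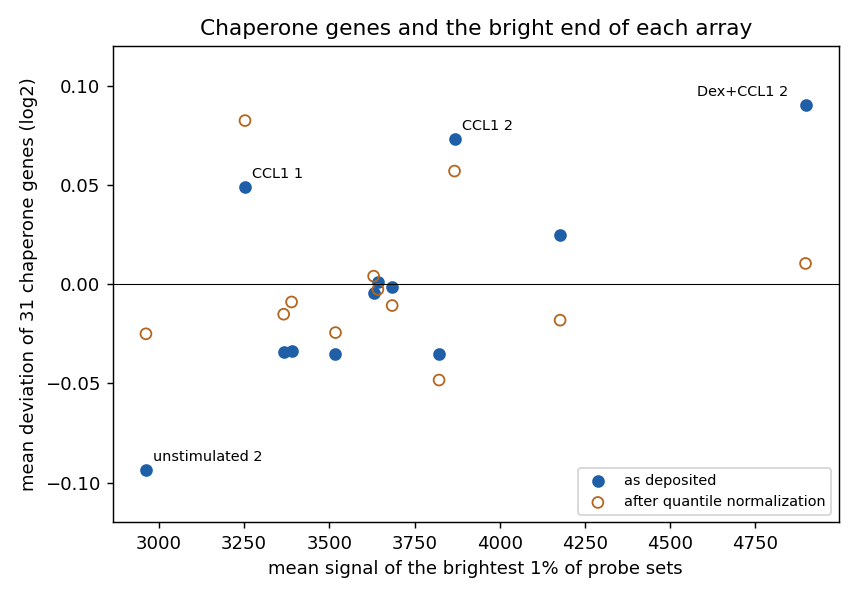
Centred mean log2(signal + 16) of the 31 tested chaperone genes on each array against the mean signal of that array's brightest 1% of probe sets, for deposited and for quantile-normalized values. With deposited values Dex+CCL1 2 lies at the top right (4897, 0.090) and unstimulated 2 at the bottom left (2962, -0.094).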

How the data were processed

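Total RNA of BW5147 cells was hybridised to 12 Affymetrix arrays. The authors deposited MAS5 signals, that is intensity values on a linear scale, in 2 tables. MAS5 is named in the submitters' processing notes without a version. The 2% trimmed mean of each array was about 100, so the arrays had been scaled before deposit, and background correction could not be redone. The tables were joined on the probe set (22626 after leaving out 64 control probe sets), and genes were named from GEO's platform annotation, 20351 of 20380 single-symbol probe sets matching RefSeq GRCm38.p6 with 0 symbols changed. Promoter sequences are RefSeq's on GRCm38.p6, and no probe sequence was used.

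Values were log2(signal + 16), so differences understate the change of low genes. Probe sets above the 40th percentile of mean log2 (a signal of 6.32) were tested with limma 3.58.1 in R 4.3.3 (lmFit, eBayes with trend, Benjamini-Hochberg over 13575 probe sets), once with a mean per group and once per number and Dex. The number of arrays, 11 in the fit, limits the precision. The fits had 5 residual degrees of freedom. Arrays scanned together are not named in the labels, so no slide or scan block was fitted. Groups came from the sample labels, and 0 value columns stayed unmapped. The genes named were the 5 members with the smallest p in each averaged comparison and in Dex on the arrays numbered 2. Members named for their reading on a single array were picked with those readings in view. The members and the lists were chosen with earlier results of these data known. On simulated data with known changes, 5.91% of the calls for averaged CCL1 were false. The results were recomputed with quantile-normalized or median-centred arrays, with pseudocounts of 1 or 64, with the filter off or raised to the 60th percentile, without the trend, on all 12 arrays, with the replicate block and without each array in turn. The array numbers as separate fits were added after seeing the data.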

Additional observations from a re-analysis of the deposited data

How the results depend on the processing

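The count of called members was 0 in 254 of 258 alternatives over the 13 comparisons. The exceptions all left out array Dex 1, which leaves Dex 2 as the lone array of its group, assumed to vary like the others: 2 members for Dex+CCL1 against Dex, 1 for averaged CCL1, 1 for Dex+IL-9 against Dex and 1 for the IL-9 effect with Dex minus that without, where 3.89%, 0.486%, 4.92% and 2% of all probe sets were called. Over all arrays left out in turn, the counts ran from 0 to 2, 0 to 1, 0 to 1 and 0 to 1 in these comparisons. CCL1 averaged over Dex conditions could not be fitted without array CCL1 1. Of 669 alternatives for single genes, 655 kept direction and side of the threshold. Those that turned were, with the arrays numbered 2 alone, Hspa4 with averaged CCL1 (-0.0032), Dnaja3 with averaged IL-9 (-0.029), and Hspa4 (0.061) and Stub1 (0.013) with averaged Dex; with the arrays numbered 1 alone, Chordc1 with averaged Dex (0.012); without Dex 2, Chordc1 (0.037) and Trap1 (-0.019) with Dex on number 2 and Chordc1 in Dex+IL-9 against Dex (-0.087); and without IL-9 2, Hsph1 with Dex on number 2 (-0.012). Over all arrays left out in turn, Dex on number 2 ran from -0.64 to 0.037 for Chordc1, from -0.012 to 0.36 for Hsph1 and from -0.019 to 0.32 for Trap1, and Chordc1 in Dex+IL-9 against Dex from -0.087 to 0.96. The cause was not tested, apart from Dex 2, whose readings are given above. The member median moved under median centring to 0.20 for CCL1 against unstimulated cells and to -0.18 for the CCL1 effect with Dex minus that without, to 0.13 for averaged CCL1 with the arrays numbered 2 alone, to -0.0091 for Dex on number 2 without unstimulated 2, and to 0.028 for the Dex effect on number 2 minus number 1 under quantile normalization. With the replicate number as a block, 0 members were called in each of 9 comparisons and averaged IL-9 gave -0.32 for Bag1 (adjusted p = 0.340, limma). Deviations from group means of same-numbered arrays correlated at -0.0051 to 0.31 over 10 pairs of groups, 5 of them over 0.1, the 3 pairs among the Dex groups included. As this did not hold for every pair, the number was not taken to pair the samples. It does mark a difference between arrays without Dex, with 0.796% of probe sets called.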

Other observations

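A wider list of chaperone genes outside the set was tested in the same limma fit, and 26 of its 33 genes passed the filter, with 0 called in any comparison (0.00737% of probe sets for averaged CCL1, 0.0958% for averaged IL-9 and 0.597% for Dex on the arrays numbered 2). Hsp90aa1, the inducible cytosolic Hsp90, read 3598 and 4145 with Dex+CCL1, 3258 and 3209.6 with Dex+IL-9, 3465 and 2079 with Dex, 2940.1 and 3411 with CCL1, 4015 and 3480.1 with IL-9 and 3389 and 2745 in unstimulated cells. Array Dex 2 was the lowest. Averaged CCL1 gave 0.23 (SE 0.18, adjusted p = 0.932) for it and averaged IL-9 0.28 (SE 0.16, adjusted p = 0.654) in limma. The extremes of the wider list were Bag4 at -0.23 and Dnajc2 at 0.32 with averaged CCL1, and Pdcl3 at -0.27 and Dnajc2 at 0.30 with averaged IL-9. With Dex on the arrays numbered 2 they were Dnajb2 and Hspa2, whose signals of 2.38 to 19.6 and 1.99 to 17 lie near the floor, so no order is read from them. Dnajc2 is the ribosomal J protein, and Bag4 inhibits death receptor signalling as well as binding Hsp70. Among the members, a further 33 probe sets were tested, and 0 were called in any comparison. Their sign matched that of the gene's chosen probe set for 21 of 33 with averaged CCL1, 19 of 33 with averaged IL-9 and 19 of 33 with Dex on the arrays numbered 2.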
